A study of Mus musculus with 12 samples.

Results

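Integrin subunits, the ligands they bind and a few partner adhesion molecules were followed in CD4+ T cells of mice. The 32 genes were taken from a list of 22 integrin subunits, 5 ligands and 5 other adhesion molecules. The list was chosen with earlier results of these data known, so its shares beside those of all genes are only descriptive. The 32 genes were found on the array among 18193 genes with a probe set of their own, and each was read by its brightest probe set over 12 arrays. The study measured transcripts on Affymetrix arrays in 4 groups of 3 samples, all from female mice. SKG cells came from lymph nodes of 40-week-old SKG mice, a strain on the BALB/c background known for a mutation of Zap70, a kinase of T cell receptor signalling. BALB cells came from BALB/c mice of the same age. Both groups were labelled as stimulated with PMA and ionomycin, which together mimic a T cell receptor signal. Both were sorted as CD4+ cells lacking FR4, except BALB replicate 1, whose label gives CD4+ cells of spleen and lymph node with no FR4 sort. The other groups were spleen samples taken 7 days after transfer of CD4+ cells into mice lacking RAG2, which have no T or B cells of their own but keep their other cells. One was IFNg KO cells in RAG2 KO hosts and the other was IL-6 KO cells in hosts lacking both IL-6 and RAG2, all on the BALB/c background. The labels of both transfer groups give 7 weeks of age and no stimulation, so age, tissue, stimulation and host set them apart from SKG and BALB together. No transfer of unmodified cells was used here. Whether replicates were separate animals is not labelled, and p-values therefore reflect the spread of these arrays alone, which may be technical.

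Integrins are receptors of 1 α and 1 β chain that hold cells to other cells and to matrix. On T cells, the β2 integrin LFA-1 (Itgal with Itgb2) binds ICAMs, and the α4 chain pairs with β1 to bind VCAM-1 and fibronectin or with β7 to bind MAdCAM-1 of the gut. The αv chain pairs with β1, β3, β5, β6 or β8, and these pairs bind vitronectin, fibronectin or the latent form of TGF-β. Chemokine and T cell receptor signals switch integrins from a resting to a binding shape through talin and kindlin, which attach to the β chain tail. Transcript level is therefore only a part of what sets adhesion.

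Values are log2(intensity + 16), where 16 was added to every deposited intensity before taking logs, so differences of dim genes are understated. Testing was limited to genes with a mean, over a comparison's 6 arrays, at or above the 40th percentile of probe sets. That floor was 4.74 for SKG and BALB and 4.72 for the transfer groups, and 24 and 25 of the 32 genes reached it. Itgam, Itga7, Itga8, Itga9, Itgb4 and Itgb6 reached it in neither comparison. Itga1 and Itga5 reached it only in the transfer comparison and Sele only between SKG and BALB. Of 8 T cell markers 7 were measured, and all 7 were above the floor in every group, Cd3e and Cd4 among them.

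Between SKG and BALB, 8 of the 24 tested genes were higher in SKG and 3 were lower by limma at a Benjamini-Hochberg adjusted p under 0.05. That is 45.8% of them. Over all 12073 genes tested 27.5% passed, 15.8% higher and 11.8% lower. With the replicate number as a block the counts were again 8 and 3, beside 34.6% of all genes, 19.9% higher and 14.7% lower. The higher genes were Itgav, Itgb3, Itgb5 and Itgb8, which encode the αv chain and 3 of its partners, together with Itgal, Itgb7, Vcam1 and Cd44. The lower genes were Itga6, Icam1 and Selplg. The absolute log2 difference had a median of 0.58 over the 24 genes and 0.35 over all genes tested. Groups did not overlap in 16 of the 24 genes, against 43.3% of all genes tested. Of the 8 higher genes 7 had a mean at or above the floor in both groups, and the exception was Vcam1, under the floor in BALB. Without BALB replicate 1, the array with no FR4 sort, 7 were higher and 3 lower. These are whole preparations of cells, so fewer cells of a type and less RNA per cell cannot be told apart.

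**Figure D1:**
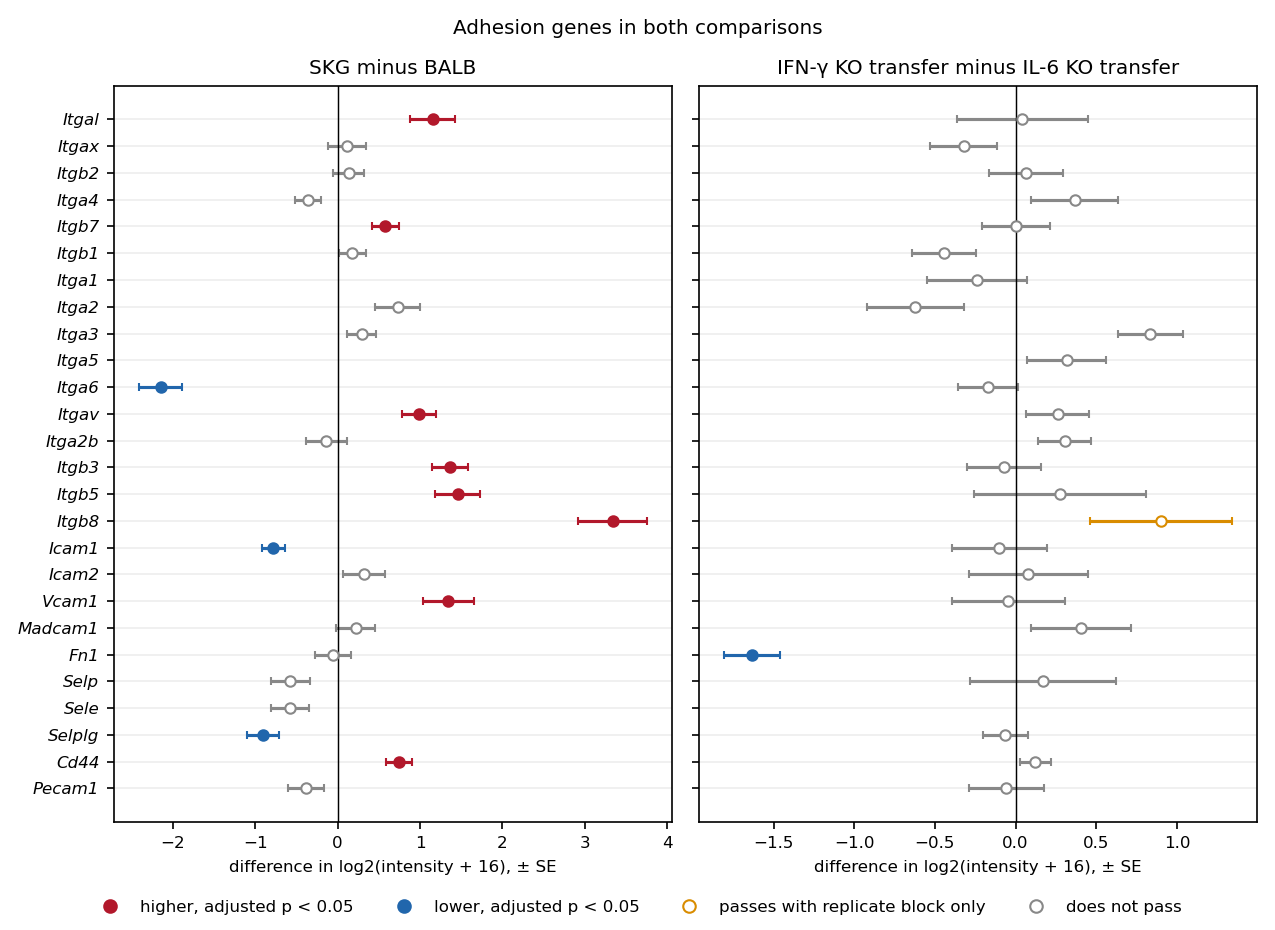
Differences of the tested genes on the log2(intensity + 16) scale, SKG minus BALB on the left and IFNg KO minus IL-6 KO transfer on the right, with their standard errors (3 arrays a group) and separate horizontal scales. On the left 11 of 24 genes passed, with Itgb8 at 3.34 and Itga6 at -2.15 the farthest from 0, while on the right Fn1 alone passed, at -1.63, and Itgb8 passed with the replicate block.

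Itgav and the genes of 3 of its β partners, β3, β5 and β8, rose in SKG. Of the other partners, Itgb1 did not pass, at 0.18, and Itgb6 was under the floor and not tested. In the group of αv, αIIb and the β3 to β8 chains without β7, 4 of 5 tested genes rose and 0 fell, where 15.8% and 11.8% of all genes did. The median was 1.37 over the 5 genes, against 0.06 over all genes tested. These are readings of the brightest probe sets. With the median over a gene's probe sets the calls of Itgav and Itgb3 were lost and Itgb5 dropped under the floor, while Itgb8 kept its call. Itgb8 encodes β8, the chain that with αv binds latent TGF-β. Its deposited intensities were 30.5, 45.7 and 55.1 in the BALB arrays and 883, 634 and 305 in the SKG arrays. On the log2 scale it read 10.01, 9.51 and 8.11 in SKG and 5.68, 6.10 and 5.84 in BALB. All 3 SKG arrays lay above all BALB arrays, and SKG replicate 3 was the lowest of the SKG arrays. The log2 fold change was 3.34 ± 0.42 (SE, limma adjusted p = 0.00086), a 10.1-fold difference on this scale. Itgav encodes the αv chain itself. It read 12.22, 12.06 and 11.42 in SKG and 10.71, 10.86 and 11.15 in BALB, a rise of 0.99 ± 0.21 (SE, limma adjusted p = 0.0083). SKG replicate 3 and BALB replicate 3 came closest to each other, without overlap.

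Itgb3 encodes the β3 chain, which pairs with αv and, in platelets, with the αIIb chain of Itga2b. It read 7.32, 7.43 and 7.19 in SKG and 5.91, 6.34 and 5.58 in BALB, and rose by 1.37 ± 0.22 (SE, limma adjusted p = 0.0025). The 3 SKG arrays lay close together and above every BALB array. Itga2b itself read 6.29 ± 0.07 (SD, n = 3) in SKG and 6.43 ± 0.50 in BALB, a difference of -0.14 with a 95% interval from -0.71 to 0.43. Platelet markers overlapped between the groups, with a summed intensity of 130 to 135 in SKG and 119 to 215 in BALB over 6 measured markers, of which Itga2b is 1 and Gp9 was under the floor in both. Itgb5 encodes β5, a partner of αv in vitronectin binding. It read 9.06, 8.57 and 8.28 in SKG and 7.43, 7.47 and 6.64 in BALB, and rose by 1.46 ± 0.28 (SE, limma adjusted p = 0.0054), again without overlap. Its probe set is of the type that Affymetrix marks with _x_at, in which probes can match other transcripts, and its other 3 probe sets were under the floor.

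The 250 bases upstream of the annotated start are given for Itgav, Itgb8 and Itgb5, which rose together, and for Icam1, which fell. They are RefSeq sequences of the mouse assembly GRCm38.p6, written 5′ to 3′ along the gene, and 21 of the 32 genes have an entry in the promoter table used. Capitals mark matches, on either strand, to any of 5 short motifs, namely AP-1 (TGANTCA), CRE (TGACGTCA), NF-κB (GGNNNTTCC), the GC box (GGGCGG) and RUNX (TGTGGT).
Itgav (chr2:83724147-83724396, plus strand): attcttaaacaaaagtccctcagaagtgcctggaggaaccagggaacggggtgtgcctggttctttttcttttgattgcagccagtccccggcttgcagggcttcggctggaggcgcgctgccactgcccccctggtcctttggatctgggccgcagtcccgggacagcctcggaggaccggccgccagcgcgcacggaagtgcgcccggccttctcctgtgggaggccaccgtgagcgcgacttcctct
Itgb8 (chr12:119238277-119238526, minus strand): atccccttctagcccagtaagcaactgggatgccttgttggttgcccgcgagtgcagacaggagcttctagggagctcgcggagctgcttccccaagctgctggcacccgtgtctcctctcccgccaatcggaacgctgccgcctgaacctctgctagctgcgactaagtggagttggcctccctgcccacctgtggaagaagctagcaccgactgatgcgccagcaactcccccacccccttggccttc
Itgb5 (chr16:33829415-33829664, plus strand): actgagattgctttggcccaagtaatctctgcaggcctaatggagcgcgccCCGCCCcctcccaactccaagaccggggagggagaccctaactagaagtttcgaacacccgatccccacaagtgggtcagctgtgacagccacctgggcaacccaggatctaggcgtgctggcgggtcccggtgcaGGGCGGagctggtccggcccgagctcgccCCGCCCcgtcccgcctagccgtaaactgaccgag
Icam1 (chr9:21015690-21015939, plus strand): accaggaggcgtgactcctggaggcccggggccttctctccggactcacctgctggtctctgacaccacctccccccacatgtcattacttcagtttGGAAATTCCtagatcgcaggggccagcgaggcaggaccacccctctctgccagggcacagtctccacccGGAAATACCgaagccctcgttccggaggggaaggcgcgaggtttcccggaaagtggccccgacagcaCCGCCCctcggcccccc
Itgav and Itgb8 held none of the 5 motifs in these windows. Itgb5 held 3 GC boxes, at 199, 63 and 34 bases before the start. Icam1 held 2 matches to the NF-κB motif, at 153 and 84 bases, and 1 GC box at 17 bases. No match overlapped another. Of all 32851 windows of this length 15.7% held the NF-κB motif, 32.7% the GC box, 6.75% AP-1, 14% RUNX and 1.55% CRE. The 3 αv pair genes thus had none of these motifs in common, and a match in a window is a description of the letters, not of binding.

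Among the β2 integrins of leukocytes 1 of 3 tested genes rose. Itgal encodes the α chain of LFA-1. It read 10.17, 10.56 and 9.45 in SKG and 9.02, 9.09 and 8.61 in BALB, a rise of 1.15 ± 0.27 (SE, limma adjusted p = 0.013), and the call was lost without SKG replicate 1 (adjusted p = 0.056). The groups did not overlap, and replicate 3 was the lowest of either group. Its partner Itgb2, the common β2 chain, read 10.79 ± 0.38 in SKG and 10.65 ± 0.14 in BALB (SD, n = 3), a difference of 0.14 with a 95% interval from -0.29 to 0.56. Itgax, the chain of CD11c on dendritic cells and some activated T cells, differed by 0.12 with an interval from -0.39 to 0.63. Both groups overlapped in Itgb2 and Itgax, and Itgam, the α chain of myeloid and NK cells, was under the floor.

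In the α4 and β7 group the β7 chain rose and the α4 chain did not pass. Itgb7 read 7.26, 7.52 and 7.25 in SKG and 6.73, 6.74 and 6.81 in BALB. Every SKG array lay above every BALB array, with a rise of 0.58 ± 0.16 (SE, limma adjusted p = 0.028). The call was lost with no filter (adjusted p = 0.063), with no normalization (0.14), and without SKG replicate 1 (0.069), SKG replicate 2 (0.12), BALB replicate 1 (0.098) or BALB replicate 2 (0.086). Itga4, which pairs with β1 or β7 for homing to inflamed tissue and gut, read 7.61, 7.40 and 7.49 in SKG and 7.84, 7.94 and 7.79 in BALB. All SKG values lay below all BALB values, with a difference of -0.36 ± 0.16 (SE, limma adjusted p = 0.12).

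Of the β1 chain and its matrix-binding α chains 4 of 9 genes were tested, and 1 fell. Itga6 encodes α6, a laminin receptor chain. Its deposited intensities were 108, 101 and 261 in SKG and 591, 623 and 973 in BALB. On the log2 scale it read 7.14, 6.91 and 7.91 in SKG against 9.30, 9.41 and 9.68 in BALB, and it fell by 2.15 ± 0.26 (SE, limma adjusted p = 0.00073). Replicate 3 was the highest array of both groups, and the groups lay over 1 unit apart. Itgb1, the common β1 chain, read 8.74 ± 0.12 in SKG and 8.55 ± 0.19 in BALB (SD, n = 3), a difference of 0.18 with a 95% interval from -0.19 to 0.55. Itga3, another laminin receptor chain, differed by 0.29 with an interval from -0.11 to 0.69. Itga2, a collagen receptor chain, was dim, at 5.28 ± 0.20 in SKG and 4.55 ± 0.44 in BALB, and did not pass (limma adjusted p = 0.081, and 0.047 without BALB replicate 3).

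Of the 5 ligands 1 rose and 1 fell in SKG. Icam1, the ligand of LFA-1, is itself made by activated T cells. It read 10.80, 10.86 and 10.86 in SKG and 11.43, 11.52 and 11.90 in BALB, and fell by 0.78 ± 0.14 (SE, limma adjusted p = 0.0039). The groups did not overlap, and the call was lost with no normalization (adjusted p = 0.054). Thus the transcript of an LFA-1 ligand was lower in the same arrays in which the brightest probe set of the LFA-1 α chain was higher. The other Itgal probe set was at -0.38 (limma adjusted p = 0.18), and Itgb2 did not pass. Icam2, a second LFA-1 ligand, differed by 0.32 with a 95% interval from -0.25 to 0.89.

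Vcam1 encodes the ligand of the α4β1 integrin, best known from endothelium, macrophages and stroma. It read 5.69, 5.64 and 6.47 in SKG and 4.58, 5.02 and 4.17 in BALB, where 2 of the 3 arrays and the mean of 4.59 lay under the floor. The gene was thus tested only through its level in SKG, and the fitted difference of 1.34 ± 0.31 (SE, limma adjusted p = 0.012) is set against a level not above the floor, so its size is not settled.

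Markers of cells known for Vcam1 were read beside it. Of 7 measured macrophage and monocyte markers, Vcam1 included, the summed intensity was 175 to 241 in SKG and 180 to 233 in BALB. The other 6 summed to 206, 141 and 129 in SKG replicates 1, 2 and 3 and to 225, 164 and 194 in BALB. These sums were lower in SKG within each number, but the groups overlapped. The 6 markers went both ways, with Cd14 at 0.48, Lyz2 at 0.37, Adgre1 at -0.05, Csf1r at -0.40 and Fcgr1 at -0.40, none of which passed. Cd68, a lysosomal protein of macrophages, differed by -0.61 ± 0.26 (SE, limma adjusted p = 0.12, or 0.025 in the blocked fit). Of the endothelial markers Cdh5, Tek and Tie1 were under the floor in both groups, while Kdr, Pecam1 and Emcn were tested, at differences of -0.11, -0.38 and 0.00066 that did not pass. Kdr, a VEGF receptor, read 6.90, 5.40 and 6.05 in SKG and 6.64, 6.79 and 5.23 in BALB, and the groups overlapped. Of the stromal markers Col1a1, Col3a1 and Pdgfrb were under the floor in both groups, while Col1a2 and Pdpn were tested, at differences of 0.24 and -0.07 that did not pass. The part of these cells in the Vcam1 result was not tested.

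The last 2 ligands did not pass. Fn1, the gene of fibronectin, read 5.29 ± 0.06 in SKG and 5.35 ± 0.29 in BALB (SD, n = 3), and Madcam1, the gut ligand of the α4β7 integrin, 5.24 ± 0.22 and 5.02 ± 0.31. Their intervals ran from -0.55 to 0.44 and from -0.33 to 0.77.

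Among the selectins and other adhesion molecules Cd44 rose and Selplg fell. CD44 is a receptor for hyaluronan that is high on T cells that have met antigen. Cd44 read 12.35, 12.54 and 12.23 in SKG and 11.81, 11.80 and 11.28 in BALB, a rise of 0.75 ± 0.16 (SE, limma adjusted p = 0.0084), and the call was lost with no normalization (adjusted p = 0.076). All SKG arrays lay above all BALB arrays. Selplg encodes PSGL-1, the selectin ligand that T cells use to roll on vessel walls. It read 9.61, 10.25 and 10.28 in SKG and 10.83, 10.88 and 11.14 in BALB, and fell by 0.90 ± 0.19 (SE, limma adjusted p = 0.0093). SKG replicate 1 was the lowest array, and no array of SKG reached the BALB range. The selectins of platelets and endothelium, Selp and Sele, read 4.48 ± 0.27 and 4.60 ± 0.21 in SKG and 5.05 ± 0.13 and 5.18 ± 0.22 in BALB (SD, n = 3), close to the floor of 4.74. Neither passed (limma adjusted p = 0.11 and 0.10), although Sele did with all 12 arrays in one fit (adjusted p = 0.047). Pecam1, the CD31 adhesion molecule, differed by -0.38 with a 95% interval from -0.88 to 0.11.

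**Figure D2:**
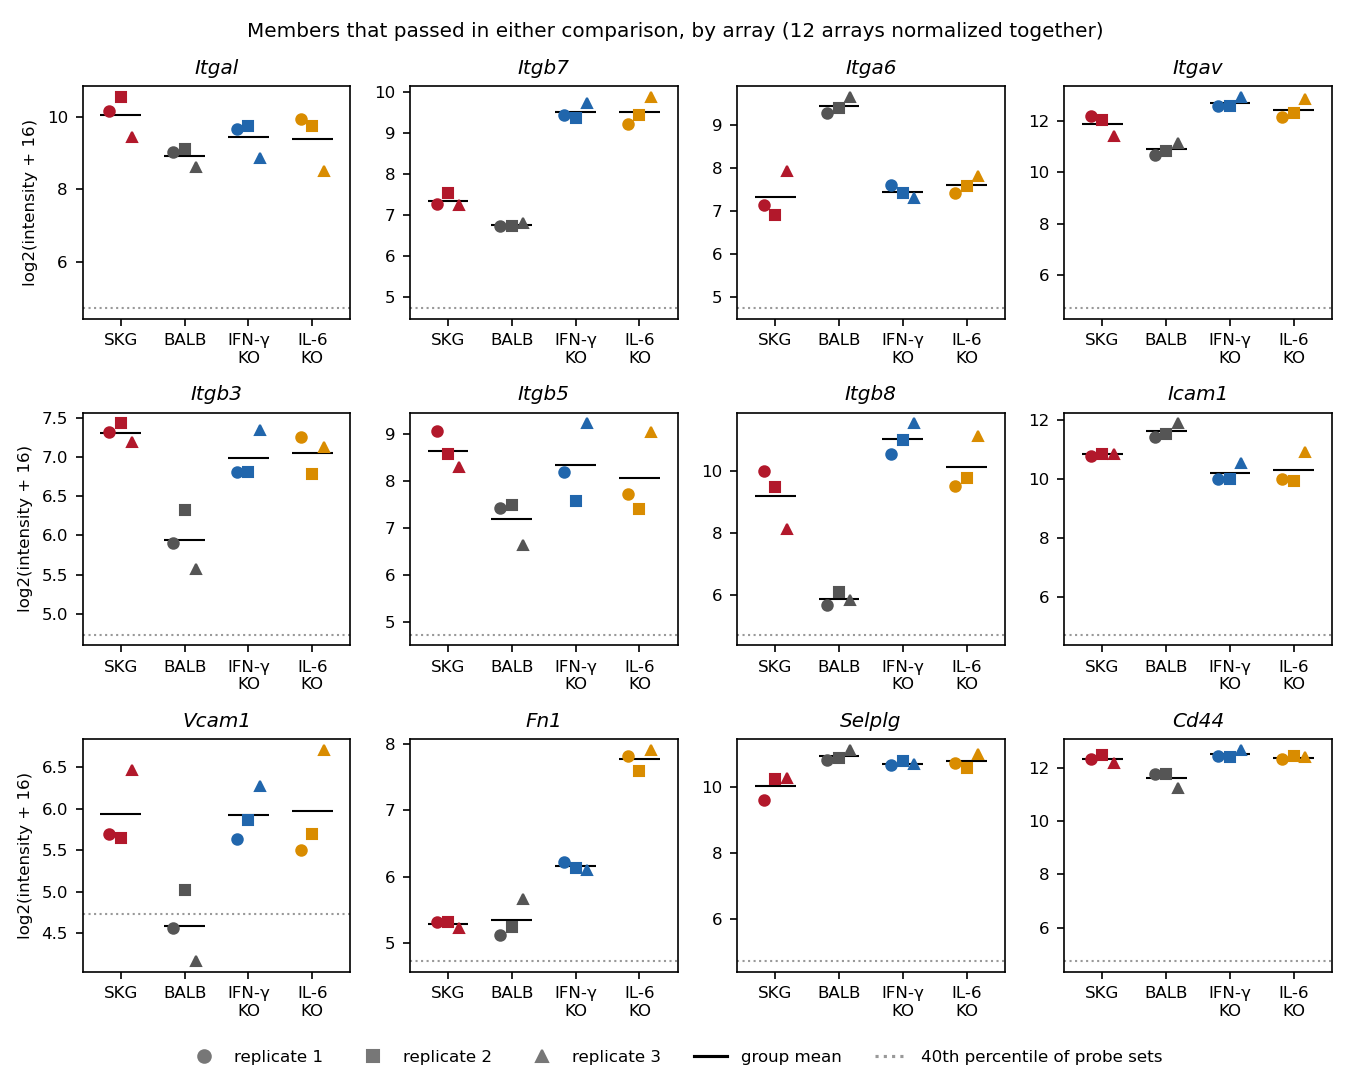
Level in every array of the 12 genes that passed in either comparison, as log2(intensity + 16) after normalizing all 12 arrays together, by group with each replicate's own symbol, the group mean as a bar and the floor of the 12 arrays as a dotted line. Itgb8 was lowest in the BALB arrays and Itga6 highest there, Fn1 was highest in the IL-6 KO transfer, and Vcam1 lay near the floor in BALB.

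Several of these genes had more than 1 probe set, and not all of them moved alike. For Itga6 both probe sets fell, with log2 differences of -2.21 and -2.15, and for Cd44 all 3 tested probe sets rose, by 0.75 to 0.98. The 2 probe sets of Itgal went opposite ways, at 1.15 for the brightest and -0.38 for the other (limma adjusted p = 0.18). For Vcam1 the other 2 were at 0.72 and -0.45, with adjusted p of 0.083 and 0.37. Itgav had 2 further tested probe sets, at 0.90 and -0.09 (adjusted p = 0.076 and 0.91), and Itgb3 had 1, at 0.39 (0.58). With the median over all probe sets of a gene in place of the brightest, 3 genes were higher, Itgb7, Itgb8 and Cd44, and 3 lower, and the calls of Itgal, Itgav, Itgb3 and Vcam1 were lost (adjusted p from 0.057 to 0.33) while Itgb5 dropped under the floor. Itgb8, Itgb7, Icam1 and Selplg had 1 probe set each.

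**Figure D3:**
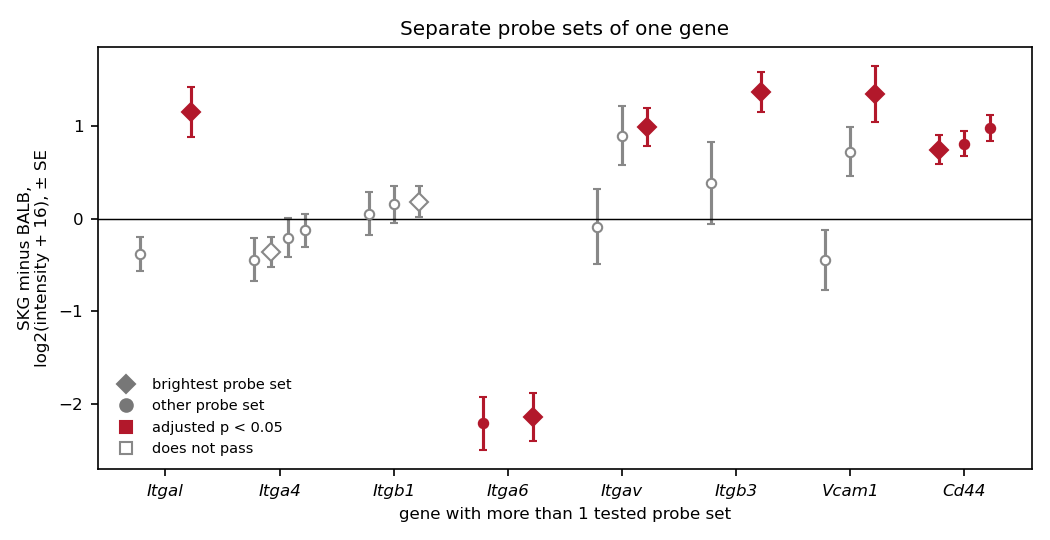
Differences between SKG and BALB on the log2(intensity + 16) scale, with standard errors (3 arrays a group), for every tested probe set of the genes with more than 1, the brightest as a diamond. The probe sets of Itga6 and of Cd44 lay together, while those of Itgal, from -0.38 to 1.15, and Vcam1, from -0.45 to 1.34, lay on both sides of 0.

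The actin 3′/5′ signal ratio and markers of other cells also differed between SKG and BALB. That ratio, which rises as RNA degrades, was 1.93 to 2.63 in SKG and 2.95 to 3.98 in BALB. The Gapdh 3′/5′ ratio overlapped, at 2.57 to 3.03 in SKG and 2.86 to 3.28 in BALB. The summed intensity of 7 B cell markers was 2865 to 6707 against 691 to 2429, with Cd79b and Pax5 under the floor in both groups. For 5 plasma cell markers it was 1161 to 2603 against 567 to 1031. The CD8 markers Cd8a and Cd8b1 summed to 28.8 to 125 in SKG and 236 to 252 in BALB, and 4 NK cell markers to 204 to 903 and 145 to 194. Such sums follow their brightest genes. Ighm was the brightest B cell marker, at 12.25, 12.68 and 11.41 in SKG and 10.11, 9.34 and 11.12 in BALB. Ms4a1 overlapped, at 6.70, 6.15 and 6.21 against 5.97, 4.98 and 7.17, and so did Cd22. Of 5 tested B cell markers 1 passed by limma as higher and 0 as lower. Cd8b1 read 4.78, 4.89 and 6.64 in SKG and 7.92, 7.96 and 7.95 in BALB. Cd8a was not lower in SKG, at 5.06, 5.72 and 5.85 against 4.76, 5.11 and 4.33. Eomes was the brightest NK cell marker, at 9.73, 9.55 and 6.95 against 7.00, 7.36 and 7.02. Of the plasma cell markers Prdm1 was higher in every SKG array and Sdc1 lower. The neutrophil markers summed to 39.7 to 65.6 and 57.2 to 62.3, the dendritic cell markers to 63.8 to 113 and 55.7 to 95.2. The endothelial markers, Pecam1 and Sele among them, summed to 106 to 189 in SKG and 135 to 203 in BALB, the stromal markers to 40.7 to 70.5 and 31.8 to 75.5 and the erythroid markers to 16.01 to 45.7 and 6.13 to 45.1. The part of these differences in the results on adhesion genes was not tested.

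Genes that act around integrins were read from 4 lists of 74 genes, of which 55 were tested between SKG and BALB. Of these 7 rose and 11 fell, or 32.7%, near the 27.5% of all genes tested. Of 22 tested genes that activate integrins or bind their tails 2 rose and 3 fell. Fermt3, the kindlin of blood cells, rose by 1.11 ± 0.16 (SE, limma adjusted p = 0.0017), from 9.70 ± 0.16 to 10.81 ± 0.24 (SD, n = 3). Itgb1bp1, which binds the β1 tail, rose by 0.87 ± 0.20 (adjusted p = 0.011). Cytip, a partner of the LFA-1 regulator cytohesin-1, fell by 0.81 ± 0.09 (adjusted p = 0.00051), and Stk4, the kinase MST1 that acts on LFA-1 adhesion, fell by 0.89 ± 0.21 (adjusted p = 0.013).

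Among 19 tested genes of the adhesion complex and of signalling from it, 8 were lower and 2 higher, where 11.8% and 15.8% of all genes were. The 8 lower genes became 3 without SKG replicate 1 or BALB replicate 1, and 5 without SKG replicate 2, BALB replicate 2 or BALB replicate 3. The scaffold gene Pxn, for paxillin, fell by 1.23 ± 0.19 (SE, limma adjusted p = 0.0023), from 11.18 ± 0.31 to 9.95 ± 0.27 (SD, n = 3). Vcl, for the actin-binding vinculin, fell by 1.06 ± 0.19 (adjusted p = 0.0039). Rac2, the Rac GTPase of blood cells, rose by 1.22 ± 0.21 (adjusted p = 0.0033), and Parvg, the γ-parvin of blood cells, rose by 1.82 ± 0.38 (adjusted p = 0.0084). Of the 4 integrin genes outside the 32, Itgae, which encodes the αE partner of β7, was the 1 tested and rose by 0.85 ± 0.18 (adjusted p = 0.0098). Of 13 tested genes on the list of other ligands 2 rose, Thy1 by 1.44 ± 0.15 (adjusted p = 0.00042) and Cd226 by 0.84 ± 0.22 (adjusted p = 0.020). Thy1 is a T cell surface protein that can bind integrins, and CD226 is a receptor associated with LFA-1 rather than a ligand. Over the 4 lists the 11 lower genes became 5 without SKG replicate 1 and 5 without BALB replicate 1, the array with no FR4 sort.

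**Figure D4:**
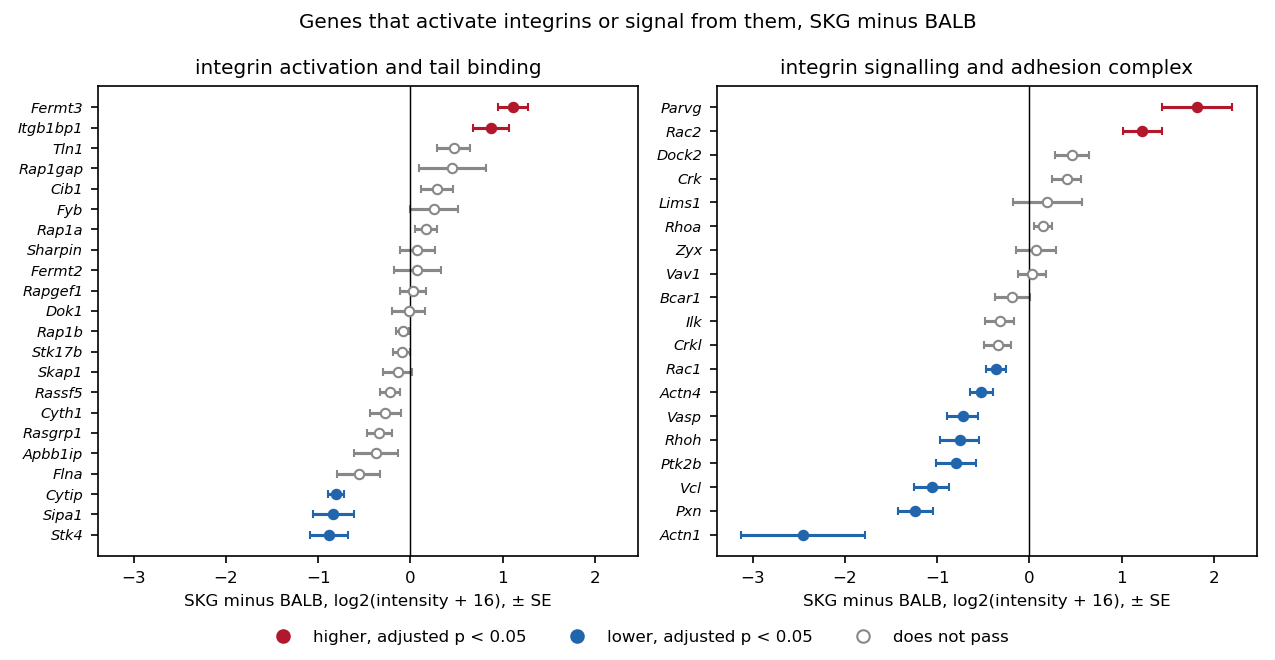
Differences between SKG and BALB on the log2(intensity + 16) scale, with standard errors (3 arrays a group), for the 22 tested genes of integrin activation and the 19 of the adhesion complex, ordered by size and coloured where adjusted p was under 0.05. Fermt3 lay highest in the left panel at 1.11, and in the right panel 8 genes passed as lower and 2 as higher.

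Between the transfer groups Fn1 was the only one of the 25 tested genes that passed by limma, and it was lower in the IFNg KO transfer. Thus 1 gene was lower and 0 were higher, with 2 reaching 0.05 before adjustment. Over all 12262 genes tested 0.114% passed, 0.0652% higher and 0.0489% lower. Donor and host genotype differed together here, so higher and lower do not say which group changed. Fn1 encodes fibronectin, the matrix ligand of the α4β1, α5β1 and several αv integrins. Its deposited intensities were 59.0, 59.1 and 49.0 in the IFNg KO transfer and 249, 195 and 186 in the IL-6 KO transfer. On the log2 scale it read 6.22, 6.13 and 6.10 against 7.83, 7.60 and 7.93, and it was lower by limma with a log2 fold change of -1.63 ± 0.17 (SE, adjusted p = 0.025). The arrays of each group lay close together and the groups far apart. The call was lost without 5 of the 6 arrays in turn (adjusted p from 0.078 to 0.26), all but IL-6 KO replicate 3, while the difference stayed between -1.70 and -1.58. Other settings that ended the call were no filter (0.085), no normalization (0.067) and the median over both probe sets (0.41, at a difference of -0.85). The other probe set of Fn1 was under the floor.

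Cells other than T cells make fibronectin, and these were spleen samples. The macrophage and monocyte markers summed to 258 to 296 in the IFNg KO and 203 to 311 in the IL-6 KO transfer, and the stromal markers to 67.4 to 84.3 and 56.6 to 91.6, with Col1a1, Col3a1 and Pdgfrb under the floor in both groups. The neutrophil markers summed to 110 to 298 and 48.1 to 1325, the highest in IL-6 KO replicate 3. The platelet markers summed to 120 to 162 and 111 to 176. Those of endothelium summed to 57.4 to 68.0 and 83.8 to 93.6, higher in the IL-6 KO transfer, with Cdh5 and Tie1 under the floor in both. The part of any of these cells in the Fn1 result was not tested.

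Itgb8 passed where arrays were paired by replicate number, and not in the fit without pairing. It read 10.55, 10.997 and 11.53 in the IFNg KO transfer and 9.50, 9.75 and 11.11 in the IL-6 KO transfer. Within each number the IFNg KO array was the higher, but the groups overlapped through IL-6 KO replicate 3. The log2 fold change was 0.90 ± 0.44 (SE), with a limma adjusted p of 1.0 unpaired and 0.018 with the replicate block. With the block 1 of 25 genes was higher and 1 lower, against 1.79% of all genes tested, 0.775% higher and 1.01% lower. In both groups replicate 3 stood apart in RNA quality, with a Gapdh 3′/5′ ratio of 7.99 and 9.33 against 2.42 to 2.84 in the other transfer arrays. With replicates 1 and 2 only, a setting chosen after seeing the data, Itgb8 was higher by 1.10 (adjusted p = 0.0017) and Itgav by 0.32 (0.017).

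The remaining genes of the list did not pass in the transfer comparison. Itga3 read 6.79, 6.63 and 6.74 in the IFNg KO and 5.66, 6.19 and 5.80 in the IL-6 KO transfer, a difference of 0.83 ± 0.20 (SE) with no overlap (limma adjusted p = 0.52, or 0.065 in the blocked fit). Groups did not overlap in 4 of the 25 genes, against 9.94% of all genes tested. For the chains that were higher in SKG the transfer differences had wide intervals, from -0.91 to 0.99 for Itgal, -0.49 to 0.50 for Itgb7, -0.61 to 0.47 for Itgb3 and -0.97 to 1.52 for Itgb5. The interval of Cd44 was narrower, from -0.11 to 0.35, and that of Itga6 ran from -0.61 to 0.27. Of 53 tested genes on the 4 lists of integrin activation, signalling, other subunits and ligands 0 passed by limma and 1 reached 0.05 before adjustment.

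A test of the difference between the comparisons, as an interaction over all 12 arrays, passed for 4 of 24 tested genes, or 16.7%, against 8.2% of all 12176 genes. Upward were 3 of the 24, against 4.86% of all genes, and downward 1, against 3.34%. As a signed value, the difference between SKG and BALB exceeded that between the transfer groups by 2.43 for Itgb8 (limma adjusted p = 0.042). It did so by 1.45 for Itgb3 (0.018) and 1.55 for Fn1 (0.0044), while for Itga6 the interaction was -1.96 (0.0056). Itga6 differed by -2.15 between SKG and BALB and by -0.17 between the transfer groups. The Fn1 value came from a transfer difference of -1.63 beside one of -0.06 between SKG and BALB. With the replicate block, which pairs arrays of the same number, 10 genes differed upward and 4 downward, against 25.6% of all genes in either direction, 15.3% upward and 10.3% downward. The upward genes that passed only with it were Itgb5 at 1.18 (blocked adjusted p = 0.0020), Itgal at 1.09 (0.0034), Cd44 at 0.61 (0.0050), Itga2 at 1.35 (0.022), Vcam1 at 1.39 (0.028), Itgb1 at 0.63 (0.036) and Itgb7 at 0.59 (0.040). The downward ones were Selplg at -0.84 (0.0061), Icam1 at -0.68 (0.010) and Itga4 at -0.73 (0.041). Of the upward genes Itga2 had a mean under the 12-array floor of 4.73 in BALB (4.54) and the IFNg KO transfer (4.45). Vcam1 was under it in BALB (4.58). Both were thus tested only through their levels in the other groups, and the size of their differences is not settled. On the 4 lists around integrins 4 of 54 genes passed, Fermt3, Rac2, Thy1 and Cd226, all upward. That is 7.41%, near the 8.2% of all genes. Cd226 was under the floor of the transfer comparison and not tested there, so the size of its difference is not settled either.

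Levels were also read side by side in the 4 groups after normalizing all arrays together, as a description with no test. Itgb7 was 9.51 ± 0.19 and 9.51 ± 0.34 (SD, n = 3) in the IFNg KO and IL-6 KO transfers, 7.35 ± 0.15 in SKG and 6.76 ± 0.04 in BALB. Both transfer groups lay above every SKG array, and SKG above every BALB array. Itgb8 was 11.04 ± 0.49 and 10.14 ± 0.86 in the transfers, 9.21 ± 0.96 in SKG and 5.87 ± 0.21 in BALB. The first 3 of these overlapped by neighbour, and BALB lay apart. Itga6 was 7.43 ± 0.15 and 7.60 ± 0.19 in the transfers and 7.32 ± 0.54 in SKG, which overlapped, against 9.45 ± 0.19 in BALB. BALB thus stood apart from the other 3 groups in Itgb8 and Itga6. Among the genes called between SKG and BALB, the BALB arrays also did not overlap the other groups in Itgav, Itgb3, Itgb7, Vcam1, Cd44 and Icam1. These genes were picked for a difference between SKG and BALB, so BALB apart from SKG was given by that choice. The share over all genes was not counted. In Itgb7 the transfers lay farther from SKG than BALB did. SKG differs from BALB in strain, and the transfers in genotype, host, age, tissue and stimulation. Itga4 ran the other way from its partner Itgb7, at 6.91 ± 0.14 and 6.54 ± 0.50 in the transfers, 7.51 ± 0.11 in SKG and 7.88 ± 0.08 in BALB.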

How the data were processed

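Per the labels' protocols, RNeasy-purified RNA of 12 samples was labelled by in vitro transcription and hybridised to Affymetrix mouse arrays. The authors deposited linear intensities of 45101 probe sets per array. For their software, build and normalization, the sources used here give nothing. Array medians ran from 15.7 to 27.7, and the number of arrays limits the precision.

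The 64 control probe sets were left out, 16 was added, log2 taken, and the 6 arrays of a comparison quantile normalized together. The annotation paired 34945 of the other probe sets with 1 gene and 932 with several. Genes reaching the 40th percentile were fitted with limma 3.58.1 in R 4.3.3 (lmFit, eBayes with trend), two-sided, Benjamini-Hochberg adjusted over all genes tested. The fit was tested on simulated data. The difference between comparisons was an interaction over 12 arrays.

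The genes and lists were chosen with earlier results of these data known. Genes passing in either comparison, with or without the replicate block, are named with each array's value, the others by level, interval or count, and up to 4 passing genes of each further list by smallest p. Same-numbered arrays deviated together, at correlations of 0.13, 0.20 and 0.33 between SKG and BALB and 0.46, 0.45 and 0.70 between the transfers. All were over the 0.1 set as a minimum. Correlations across numbers 1 and 2 were 0.17 and 0.17, and 0.44 and 0.41, much as within those numbers. Those between number 3 and the others were negative. The values thus set number 3 apart and do not show that numbers 1 and 2 pair the arrays. Calls are from the fit without the block, and the blocked value is printed where it changes a call. Alternatives were other added constants, filters, scalings and probe set rules, 12 arrays in one fit, the block and leaving out arrays.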

Additional observations from a re-analysis of the deposited data

Results flagged for a closer look

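In 4 of 24 genes the difference between SKG and BALB departed from that between the IFNg KO and IL-6 KO transfers. This was by the limma interaction over 12 arrays without the replicate block, where 8.2% of all 12176 genes passed. With the block, which pairs same-numbered arrays, 14 of 24 genes did, 10 upward and 4 downward, these 4 included. Of all genes 25.6% did, 15.3% upward and 10.3% downward. The array correlations do not show that numbers 1 and 2 pair the arrays. The interaction was 2.43 for Itgb8, 1.45 for Itgb3, 1.55 for Fn1 and -1.96 for Itga6 on the log2 scale. Itga6 kept its call in every setting run. Itgb8 lost it without 8 of the 12 arrays in turn (adjusted p from 0.064 to 0.11). Its call also ended with 64 as the added constant (0.11), with no filter (0.063) and with all probe sets separately (0.052). Itgb3 lost its call without SKG replicate 2 (0.054) and without IL-6 KO replicate 1 (0.053). Reading each gene by a median over probe sets ended the calls of Itgb3 (0.12) and Fn1 (0.067). Age, tissue, stimulation and host differ between the pairs of groups, so what sets the comparisons apart cannot be told apart.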

How the results depend on the processing

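Of the 11 genes called between SKG and BALB 4 kept their call in every setting that tested them, Itga6, Itgb5, Itgb8 and Selplg, and 0 reversed. The 8 higher genes ranged from 6 to 9 and the 3 lower stayed 3 when leaving out each array, and with the median of probe sets 3 were higher. The replicate block changed no call of the 11. On the integrin lists the 7 higher and 11 lower genes ranged from 6 to 9 and from 5 to 11 without single arrays. There, 7 were lower with no normalization and 12 higher with replicates 1 and 2 only, a setting chosen after seeing the data. In the transfer comparison the 1 lower gene, Fn1, became 0 with no filter, no normalization or the median of probe sets, and 0 to 1 without single arrays. The 0 higher genes became 1 with the replicate block and 2 with replicates 1 and 2 only, and stayed 0 without single arrays. Of the lists 2 were then higher and 1 lower, against 0 and 0 in the limma fit (1 at an unadjusted p under 0.05) and without single arrays. For the difference between comparisons the 3 upward genes ranged from 1 to 4 and the 1 downward gene from 1 to 4 without single arrays. Upward and downward counts were 10 and 4 with the replicate block, 9 and 4 with replicates 1 and 2 only, and 1 upward with the median of probe sets. On the lists the 4 upward genes ranged from 1 to 4 and the 0 downward from 0 to 3 without single arrays. Upward genes were 2 with no filter, 1 with no normalization, 2 with the median of probe sets, 2 with all probe sets separately and 8 with replicates 1 and 2 only. Downward genes were 4 with the median of probe sets, 7 with the replicate block and 10 with replicates 1 and 2 only. Leaving out IL-6 KO replicate 3 gave the 4 and the 3 downward genes, and SKG replicate 3 gave 2 and 2. The 1 upward gene of the 32 came without SKG replicate 2. On the lists 1 upward gene was left without SKG replicate 1 or 2, BALB replicate 1 or IL-6 KO replicate 1 or 2, and 2 without BALB replicate 2 or 3 or IFNg KO replicate 3. The cause was not tested. Levels near the floor limit Vcam1, Selp, Sele, Itga2 and Madcam1.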
